A study of Mus musculus with 2 samples.

Results

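The mouse kinesin and centromere protein genes were described across luminal cells of normal mammary glands and of glands carrying an oncogenic transgene. Members were taken by symbol, as all genes named Kif or Cenp with a number or single letter, and had to reach 20 unique molecular identifiers (UMIs) over both deposited matrices. Of 60 matching symbols among 31053 rows, 55 passed, 35 of them named Kif and 20 named Cenp. The symbols under the minimum were Kif2b, Kif6, Kif12, Kif16bos and Kif28. By role, 11 members were mitotic kinesins, 15 were transport kinesins, 9 were other Kif genes, and the 20 centromere genes comprised Cenpa, 14 genes of the inner kinetochore network, the corona genes Cenpe and Cenpf, and Cenpb, Cenpj and Cenpv. One Kif symbol, Kif1bp, names a kinesin-binding protein and not a motor.

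Both groups were FVB/NJ mice aged 3.5 months that carried a Sox9-GFP reporter, and luminal cells of the mammary gland were sorted from them by flow cytometry and profiled with droplet-based 3' RNA sequencing. The labels give the WT group (genotype Sox9-GFP) no other allele, and the C3-TAg group (genotype Sox9-GFP;C3-TAg) added the C3-TAg transgene, in which the promoter of a rat prostate steroid-binding protein gene drives simian virus T antigens in mammary epithelium. Each group was 1 library, and how many mice were pooled was not given in the labels. No difference therefore has a replicate check, no p-value is given, and all intervals are exact 95% intervals that cover counting error only.

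The WT matrix held 8993 barcodes with 91133082 UMIs and the C3-TAg matrix 9575 barcodes with 91932121 UMIs, with medians of 9670 and 8397 UMIs per barcode. After filters and removal of called doublets, 7046 and 7914 cells were kept, and 17 of the kept barcodes were shared by both libraries. Cells were put into 3 classes by genes outside the families described. Hormone-sensing cells had at least 5 UMIs per 10000 from Areg, Pgr, Esr1 and Cited1 together (2720 WT and 2027 C3-TAg cells). The remaining cells were casein-high, with at least 0.5% of UMIs from caseins (3750 and 2491 cells), or casein-low (576 and 3396 cells). The luminal keratins and Epcam summed to between 9438 and 24907 CPM (UMIs of a gene scaled to a class total of 1000000) in the 6 combinations of library and class, and markers of endothelial, immune and fibroblast cells to at most 32.0 CPM each. Basal markers summed to between 16.7 and 463 CPM and were mostly Krt14 in C3-TAg, while the contractile markers Acta2 and Myh11 stayed at or under 10.95 CPM. One class went against its label in part. Among the C3-TAg hormone-sensing cells, 426 had under 1 UMI per 10000 of the receptor-linked genes Pgr, Esr1 and Cited1 and had entered the class through Areg, and in them Foxa1 stood at 17.4 CPM and Krt17 at 763 CPM, against 123 and 11.1 CPM in the 1324 cells with 3 or more. These 426 cells held 1529 of the 2043 mitotic kinesin UMIs of the class, so ratios in cells with 3 or more receptor UMIs are given beside those of the whole class for the members and partners described most closely.

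Kinesins are motor proteins that use ATP to walk along microtubules or to take them apart. One set builds and moves the mitotic spindle and closes cell division, and its genes are switched on as cells approach mitosis and switched off in resting cells. The other set hauls vesicles, mitochondria and ciliary cargo in cells of every state. CENP-A, encoded by Cenpa, replaces the usual histone in centromeric nucleosomes. The inner kinetochore network sits on that chromatin through the whole cell cycle, and CENP-E and CENP-F join the outer kinetochore only for mitosis. Genes of the mitotic set are held down in resting cells by complexes of Rb-family proteins with E2F and of the DREAM complex, which reads the cell cycle homology region (TTTGAA or a close relative) in their promoters, often next to CCAAT boxes bound by NF-Y. T antigen binds Rb-family proteins and p53.

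Promoter windows were searched for these letters. A window of 250 bases before to 50 bases after the gene start was found for 48 of the 55 members in the RefSeq table of build GRCm38.p6. The letters TTTGAA, on either strand, lay in the window of 9 of the 10 mitotic kinesins that had one and of 0 of 11 transport kinesins, against 18.1% of all 27025 windows. The relative TTCGAA was in none of the mitotic and transport kinesin windows, in 1 each of the inner network and the other Kif genes, and in 1.57% of all. The inner kinetochore network had TTTGAA in 3 of 14 windows (21.4%) and CCAAT in 10 of 14 (71.4%), where 37.9% of all windows held CCAAT. For the mitotic kinesins CCAAT was in 6 of 10, and the same 6 also held TTTGAA. Of all windows 7.70% held CCAAT together with TTTGAA or TTCGAA. Among the other Kif genes 3 of 7 windows (42.9%) held TTTGAA or TTCGAA, those of Kif24, Kif26b and Kif27, and each also held CCAAT. In transport kinesins, 3 of 11 windows held CCAAT (27.3%). The longer E2F-like letters TTTCGCGC or TTTGGCGC were in 2 of 10 mitotic kinesin windows and 0.833% of all. All motifs were read on both strands. TTTGAA and TTTGGCGC begin alike, but no stretch matches both, and a match describes letters and not a bound site. The window of Kif18a held no TTTGAA.

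The windows of 7 members show the layouts behind these counts, 5' to 3' on the strand of the gene, with TTTGAA and CCAAT, read in either direction, in capitals. Cenpa (chr5:30666636-30666935 on the plus strand), Cenpf (chr1:189688037-189688336 on the minus strand), Kif23 (chr9:61946750-61947049 on the minus strand), Kif4 (chrX:100625815-100626114 on the plus strand) and Kif11 (chr19:37376132-37376431 on the plus strand) carry TTTGAA, or TTCAAA when it lies on the other strand, close to the RefSeq gene start. Cenpe (chr3:135212313-135212612 on the plus strand) has a CCAAT box and no TTTGAA. Kif1b (chr4:149307684-149307983 on the minus strand), a transport kinesin, has CCAAT on the other strand (ATTGG) at 2 places and no TTTGAA.
Cenpa: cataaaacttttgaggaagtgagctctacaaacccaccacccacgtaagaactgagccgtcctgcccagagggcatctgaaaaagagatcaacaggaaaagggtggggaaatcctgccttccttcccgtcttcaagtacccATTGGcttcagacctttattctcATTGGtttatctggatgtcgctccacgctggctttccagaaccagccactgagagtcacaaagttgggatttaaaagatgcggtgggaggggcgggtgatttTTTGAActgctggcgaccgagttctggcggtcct
Cenpf: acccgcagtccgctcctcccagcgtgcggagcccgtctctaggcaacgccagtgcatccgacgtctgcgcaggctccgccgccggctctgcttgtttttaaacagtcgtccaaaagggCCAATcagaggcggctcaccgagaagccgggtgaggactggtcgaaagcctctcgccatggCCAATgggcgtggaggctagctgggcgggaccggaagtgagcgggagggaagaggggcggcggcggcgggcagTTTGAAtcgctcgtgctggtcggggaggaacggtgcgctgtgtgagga
Cenpe: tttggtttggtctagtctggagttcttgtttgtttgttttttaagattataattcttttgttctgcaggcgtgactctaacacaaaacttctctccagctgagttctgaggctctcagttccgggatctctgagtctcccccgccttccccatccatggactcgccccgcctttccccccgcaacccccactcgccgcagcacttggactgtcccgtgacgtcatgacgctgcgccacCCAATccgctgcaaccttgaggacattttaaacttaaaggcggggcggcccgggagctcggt
Kif23: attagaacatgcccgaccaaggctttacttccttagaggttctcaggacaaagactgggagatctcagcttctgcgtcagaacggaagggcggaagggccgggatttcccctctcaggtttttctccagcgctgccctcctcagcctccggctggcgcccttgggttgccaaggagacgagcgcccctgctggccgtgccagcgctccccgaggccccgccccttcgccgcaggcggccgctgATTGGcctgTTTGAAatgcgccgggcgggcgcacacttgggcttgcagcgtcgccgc
Kif4: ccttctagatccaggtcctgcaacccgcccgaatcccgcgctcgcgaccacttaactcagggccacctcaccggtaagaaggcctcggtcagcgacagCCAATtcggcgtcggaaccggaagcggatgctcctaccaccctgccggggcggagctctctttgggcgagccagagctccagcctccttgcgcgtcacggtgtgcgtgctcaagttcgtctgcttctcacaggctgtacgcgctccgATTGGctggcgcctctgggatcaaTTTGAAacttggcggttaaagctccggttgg
Kif11: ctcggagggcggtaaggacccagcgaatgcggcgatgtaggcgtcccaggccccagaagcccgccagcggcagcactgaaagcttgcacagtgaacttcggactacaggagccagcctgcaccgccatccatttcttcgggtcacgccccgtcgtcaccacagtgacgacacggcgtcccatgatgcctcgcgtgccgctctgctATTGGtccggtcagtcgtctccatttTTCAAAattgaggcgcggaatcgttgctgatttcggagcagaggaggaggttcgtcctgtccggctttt
Kif1b: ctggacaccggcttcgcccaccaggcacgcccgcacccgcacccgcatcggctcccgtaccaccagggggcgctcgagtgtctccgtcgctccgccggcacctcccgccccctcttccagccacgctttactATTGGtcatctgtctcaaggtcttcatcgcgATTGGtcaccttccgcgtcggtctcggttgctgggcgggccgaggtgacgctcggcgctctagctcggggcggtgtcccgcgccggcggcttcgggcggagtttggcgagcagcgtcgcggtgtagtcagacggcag
In Cenpa, Cenpf, Kif23 and Kif4 the TTTGAA begins at base 267, 253, 253 and 270 of the window, counted from its first base, so just past the RefSeq start from which the window was cut, and in Kif11 the reverse form begins at base 232. A CCAAT box lies upstream of it in each of the 5, at 1 place in Kif23 and Kif11 and at 2 places in Cenpa, Cenpf and Kif4. The separate GRCm38 gene models can place a start elsewhere, and for Kif4 it lies at chrX:100625737, ahead of the whole window.

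All 11 mitotic kinesins were higher in the C3-TAg library than in the WT library in each of the 3 classes. A gene with at least 20 UMIs over both libraries was called higher or lower at a ratio of CPM of 1.5 or more in that direction, and lesser ratios are described as under or within the call. By that rule 22.8% of the 12786 genes tested were higher in hormone-sensing cells, 31.2% of 12905 in casein-high cells and 37.2% of 12820 in casein-low cells. The median log2 ratio of the mitotic kinesins was 4.90, 6.26 and 5.54 in these classes, beside 0.14, 0.32 and 0.35 for all genes tested. Summed over the 11 genes, the level was 7.49 CPM (6.49 to 8.60) in WT hormone-sensing, 3.69 CPM (3.16 to 4.28) in WT casein-high and 9.06 CPM (6.55 to 12.2) in WT casein-low cells. In the C3-TAg library the sums were 120.0 CPM (115 to 125), 206 CPM (200.3 to 211) and 422 CPM (415 to 429.5), so every C3-TAg class lay above every WT class, and within C3-TAg the casein-low cells were highest. The basal keratin Krt14 moved with the library in the same classes, from 9.55 to 109, 26.2 to 462 and 147 to 411 CPM (WT to C3-TAg), and its part in these results was not tested.

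The 6 mitotic kinesins with the highest UMI levels are given in full, always in the order hormone-sensing, casein-high and casein-low. UMI counts at the 3' end do not scale with transcript length, but capture differs between genes, so levels are compared between cells and not between genes. Kif23, the motor of centralspindlin that bundles the midzone and sets the cleavage furrow, stood at 0.562, 0.662 and 3.16 CPM in WT hormone-sensing, casein-high and casein-low cells and 20.9, 18.5 and 74.0 CPM in the C3-TAg cells of those classes. Its ratios of C3-TAg over WT were 37.1 (22.2 to 67.0), 28.0 (19.5 to 41.7) and 23.4 (14.2 to 41.9). The highest WT value was below the lowest C3-TAg value. Kif4, a chromokinesin that rides on chromosome arms and limits midzone length, had 0.0749, 0.235 and 0.211 CPM in WT cells and 20.2, 29.1 and 69.5 CPM in C3-TAg cells. In WT this rested on 2, 11 and 1 UMIs, and 5 of those in casein-high cells came from 1 cell, while the C3-TAg classes held 344, 831 and 2237. The Kif4 ratio was 269.8 (74.1 to 2237) in hormone-sensing cells, 124 (68.8 to 249) in casein-high cells and 330.0 (59.2 to 13040.5) in casein-low cells, where the width of the intervals comes from the few WT counts.

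Kif11, which slides antiparallel microtubules apart and separates the spindle poles, had 0.449, 0.256 and 1.47 CPM in WT cells and 18.03, 30.4 and 68.6 CPM in C3-TAg cells, with ratios of 40.1 (22.6 to 78.5), 119 (67.6 to 231) and 46.5 (22.5 to 116). Kif15, which can keep the spindle bipolar beside Kif11, had 0.187, 0.427 and 1.05 CPM in WT cells and 15.4, 32.7 and 56.6 CPM in C3-TAg cells, with ratios of 82.2, 76.7 and 53.7. Both were highest in C3-TAg casein-low cells. Kif20b, which acts in late cytokinesis, had 0.712, 0.427 and 0.842 CPM in WT cells and 15.2, 35.4 and 56.9 CPM in C3-TAg cells, and its ratios were 21.3, 82.9 and 67.6. Kif22, a second chromokinesin that pushes chromosomes away from the poles, had 0.337, 0.939 and 0.842 CPM in WT cells and 8.11, 21.0 and 28.1 CPM in C3-TAg cells, for ratios of 24.0, 22.3 and 33.4. Each of these 4 genes was lower in every WT class than in any C3-TAg class.

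The remaining 5 mitotic kinesins had fewer UMIs over both matrices, although in WT Kif18a and Kif2c had the most of all 11 (95 and 83). Kif18b, which works on astral microtubule ends, had 0 UMIs in WT hormone-sensing cells and was at least 29.8-fold higher in the C3-TAg cells, counting the WT library at a floor of 3 UMIs. Kif14, needed at the midbody, and Kif20a, which carries the chromosomal passenger complex to the midzone, had 0 UMIs in WT casein-low cells and were at least 14.7-fold and 26.8-fold higher. Kif2c, a microtubule depolymerase that corrects wrong attachments at centromeres, and Kif18a, which dampens the movements of chromosomes, had their smallest ratios in hormone-sensing cells. Kif2c (ENSMUSG00000028678, GRCm38 chr4:117159639-117182639, minus strand) stood at 2.66 CPM (2.08 to 3.35) in WT hormone-sensing cells, but at 0.0640 and 0.211 CPM in the other WT classes. Its 71 WT hormone-sensing UMIs were spread over 64 cells with at most 2 in a cell, so no few cells carried them. The C3-TAg over WT ratio of Kif2c was 2.92 (2.17 to 3.95) in hormone-sensing cells and 173 and 89.1 in the others. Kif18a stood at 1.98 CPM in WT hormone-sensing cells (53 UMIs in 49 cells), and its ratios were 1.89 (1.30 to 2.78), 18.2 and 10.1.

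**Figure D1:**
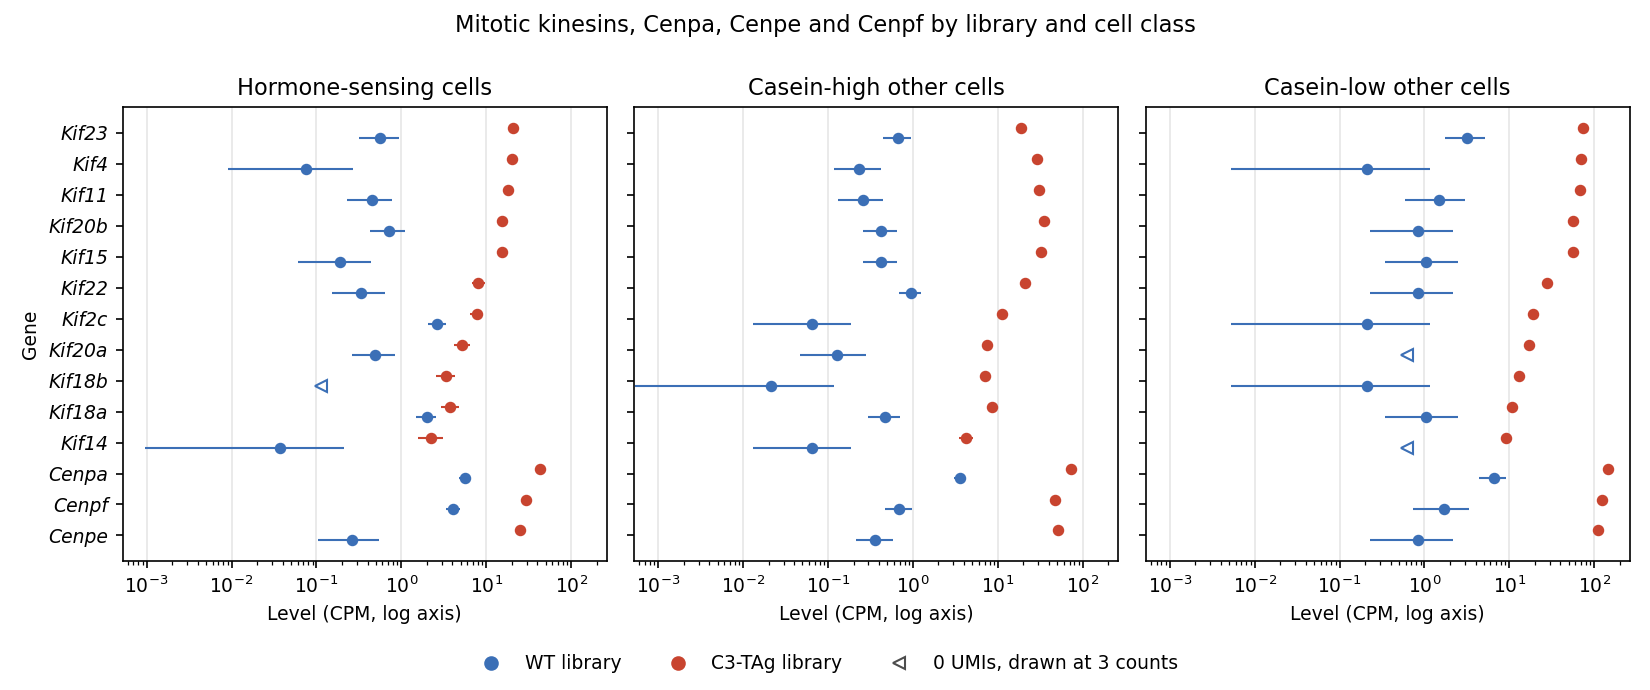
Level of each mitotic kinesin, Cenpa, Cenpe and Cenpf in CPM (log axis) in the WT and C3-TAg libraries, with 1 panel per cell class. Points are class totals, bars are exact 95% counting intervals, and open triangles mark genes with 0 UMIs at the level of 3 counts. The C3-TAg points lie to the right of the WT points for every gene, and Kif2c and Kif18a have the smallest gap in hormone-sensing cells.

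In hormone-sensing cells the size of the difference depended on the cells that had entered the class through Areg. The mitotic kinesins summed to 374 CPM in the 426 C3-TAg cells with under 1 receptor UMI per 10000, to 95.2 CPM in the 277 cells with 1 to 3 and to 28.0 CPM in the 1324 cells with 3 or more, against 7.46 CPM in the 2576 WT cells with 3 or more. Among cells with 3 or more, 9 mitotic kinesins reached 20 UMIs and all 9 were higher in C3-TAg, where 12.3% of 12159 genes were, with a median log2 ratio of 2.70. The ratio was 6.49 (3.26 to 13.8) for Kif23, 6.55 (2.96 to 16.0) for Kif11, 9.91 (3.64 to 33.6) for Kif15 and 8.85 (3.96 to 22.3) for Kif22. For Kif4 it was 24.8 (6.05 to 218), on 21 against 2 UMIs, for Kif20a 4.52 (2.16 to 9.97) and for Kif20b 3.67 (1.96 to 7.04). Kif2c and Kif18a gave 2.23 (1.57 to 3.15) and 1.56 (0.972 to 2.46). Kif14 and Kif18b had under 20 UMIs there. Krt14 stood at 15.7 CPM in these C3-TAg cells and at 8.69 CPM in the WT ones. Lower genes made up 9.51% there, and no mitotic kinesin was among them. All 9 ratios were smaller in these cells than in the whole class, and that of Kif18a had an interval that included equality.

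Droplets also take up RNA released by other cells of the same library. In C3-TAg cells with 3 or more receptor UMIs the caseins stood at 272 CPM and in the casein-high and casein-low cells together at 15006 CPM. Mitotic kinesins were 28.0 against 320.4 CPM. The ratio of receptor-positive over other C3-TAg cells ran from 0.0390 for Kif4 to 0.414 for Kif2c over the 11 mitotic kinesins. The part of free RNA in the receptor-positive level was not tested.

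Counted per cell, the libraries differed in how many cells held any such transcript. With every cell thinned to 2000 UMIs, a mitotic kinesin UMI was found in 1.14% (0.779 to 1.62%) of WT hormone-sensing, 0.561% (0.348 to 0.857%) of WT casein-high and 1.58% (0.726 to 2.98%) of WT casein-low cells. In the C3-TAg library the shares were 11.5% (10.2 to 13.0%), 27.2% (25.5 to 29.0%) and 41.9% (40.2 to 43.6%). The highest WT share lay well under the lowest C3-TAg share. Without thinning the WT shares were 6.36%, 3.79% and 5.21% and the C3-TAg shares 25.2%, 61.3% and 70.4%, and thinning left out at most 22 cells of a class. Median depth was 9431.5, 11802 and 7609 UMIs per cell in the WT classes and 7829, 10190 and 8339.5 in the C3-TAg classes, so the C3-TAg class was shallower in 2 of the 3 pairs. In C3-TAg cells with 3 or more receptor UMIs the thinned share was 4.69% (3.62 to 5.98%), and in those under 1 it was 35.8% (31.2 to 40.6%). Cells with endothelial or immune markers, which serve as a check on free RNA, held such a UMI in 0 of 20 thinned WT cells, with an exact interval of 0 to 16.8% (15.0% by the limit of 3 counts), and in 1 of 11 C3-TAg cells. Without thinning, 2 of 22 WT and 2 of 12 C3-TAg marker cells held one. Their mitotic kinesins summed to 11.5 CPM (1.39 to 41.5) in WT and 52.2 CPM (21.0 to 108) in C3-TAg, on 2 and 7 UMIs. These cells are too few to set a background. Transport kinesin UMIs were found in 72.8% (71.0 to 74.4%), 60.6% (59.0 to 62.2%) and 64.1% (60.1 to 68.1%) of thinned WT cells and in 77.7% (75.8 to 79.5%), 66.5% (64.6 to 68.4%) and 73.4% (71.9 to 74.9%) of C3-TAg cells, so this set was found in most cells of both libraries.

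Of the 20 centromere genes, 16, 18 and 17 were higher in C3-TAg hormone-sensing, casein-high and casein-low cells and none was lower. All genes tested had shares of 22.8%, 31.2% and 37.2% higher in these classes. The median log2 ratio was 2.55, 4.43 and 3.90. Cenpa stood at 5.58, 3.61 and 6.53 CPM in WT hormone-sensing, casein-high and casein-low cells and 43.5, 72.5 and 144 CPM in the C3-TAg cells of those classes. Its ratios were 7.79 (6.52 to 9.35), 20.1 (17.2 to 23.7) and 22.1 (15.6 to 32.6). Cenpe, the kinetochore motor that carries chromosomes to the spindle equator, had 0.262, 0.363 and 0.842 CPM in WT cells and 25.2, 51.8 and 111 CPM in C3-TAg cells, with ratios of 96.1 (46.3 to 241), 143 (88.9 to 246) and 132 (51.6 to 485). Cenpf, a large corona protein that binds microtubules and dynein regulators, had 4.08, 0.683 and 1.68 CPM in WT cells and 29.5, 47.5 and 123 CPM in C3-TAg cells, with ratios of 7.24 (5.87 to 8.99), 69.6 (49.1 to 102) and 73.0 (37.0 to 169). Of the 3, Cenpf had the widest spread over the WT classes, and its 109 UMIs in WT hormone-sensing cells lay in 75 cells, with at most 6 in a cell. Among cells with 3 or more receptor UMIs, 11 of the 20 were higher in C3-TAg and none lower, beside 12.3% of all genes higher. There the ratios were 5.30 (4.31 to 6.54) for Cenpa, 14.2 (6.30 to 37.3) for Cenpe and 2.49 (1.89 to 3.29) for Cenpf.

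The inner kinetochore network was less uniform. Cenpx, a histone-fold protein that also serves the Fanconi anaemia pathway with Cenps, was present in WT and nearly equal between libraries, at 60.3, 65.3 and 43.8 CPM in WT cells and 53.7, 89.3 and 61.2 CPM in C3-TAg cells. Its ratios were 0.891 (0.821 to 0.967), 1.37 (1.30 to 1.44) and 1.397 (1.21 to 1.62), all under the call. Its partner Cenps had 9.96, 0.918 and 2.32 CPM in WT cells and 20.7, 28.9 and 47.4 CPM in C3-TAg cells, with ratios of 2.08, 31.5 and 20.5, so within this pair one gene was near its WT level and the other was not. The WT hormone-sensing level of Cenps came from 266 UMIs in 237 cells. Cenpw, which pairs with Cenpt to hold the outer kinetochore, had 3.82, 3.76 and 4.001 CPM in WT cells and 20.4, 52.0 and 57.6 CPM in C3-TAg cells, with ratios of 5.34, 13.8 and 14.4. Cenpt itself had ratios of 2.23, 2.26 and 2.50. Both partners were higher in every C3-TAg class, Cenpw by the larger ratio.

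Cenpq, which forms a complex with Cenpo, Cenpp and Cenpu, had 21.6, 5.23 and 7.37 CPM in WT cells and 32.4, 34.1 and 57.1 CPM in C3-TAg cells, with ratios of 1.503, 6.52 and 7.75. Cenpm had 0.899, 0.683 and 2.32 CPM in WT cells and 12.9, 20.4 and 41.3 CPM in C3-TAg cells and ratios of 14.3, 29.8 and 17.8. Cenpk, which joins Cenph and Cenpi in linking CENP-C to the other subunits, had 1.61, 0.747 and 0.421 CPM in WT cells and 10.98, 26.8 and 39.6 CPM in C3-TAg cells and ratios of 6.82, 35.8 and 93.9. For Cenpm and Cenpk every C3-TAg class was above every WT class. Cenpn and Cenpl form a dimer that reads the CENP-A nucleosome. Cenpn was higher by 17.5, 23.9 and 21.6-fold, while Cenpl gave 0.916 (0.814 to 1.03), 2.26 (1.86 to 2.76) and 1.54 (1.16 to 2.09), at 29.1 CPM in WT hormone-sensing cells against 3.86 and 10.95 CPM in the other WT classes. Within this dimer the hormone-sensing ratio was past the call for Cenpn alone. The other 5 network genes, Cenph, Cenpi, Cenpo, Cenpp and Cenpu, were higher in each class, with ratios from 1.73 for Cenpo in hormone-sensing cells to 117 for Cenpi in casein-low cells, where WT had 1 UMI. In cells with 3 or more receptor UMIs, 8 of the 14 network genes were higher, with ratios of 3.11 for Cenpm, 4.29 for Cenpn, 2.63 for Cenpw and 1.75 for Cenpt. Cenpk, Cenps, Cenpq and Cenpo were within the call there, at 1.30, 1.17, 1.12 and 1.05, so for these 4 genes the hormone-sensing call was lost without the cells that had little receptor transcript.

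The 3 other centromere genes went separate ways. Cenpj, which builds centrioles, was higher by 1.86, 6.78 and 10.96-fold, and was within the call at 1.43 (1.08 to 1.87) in cells with 3 or more receptor UMIs. Cenpb, which binds satellite repeats and is not needed for a working centromere in mice, had 59.4, 56.3 and 60.9 CPM in WT cells and 56.7, 85.8 and 77.1 CPM in C3-TAg cells, with ratios of 0.954 (0.880 to 1.03), 1.53 (1.44 to 1.61) and 1.27 (1.12 to 1.44). Exons of Cenpb overlap those of Spef1 on the same strand, so part of its count could belong to that gene. Cenpv, described in human cells at the spindle midzone and pericentromeric chromatin, had 63.5, 14.2 and 18.7 CPM in WT cells and 47.3, 16.4 and 18.2 CPM in C3-TAg cells and was under the call in each class, at 0.746, 1.15 and 0.971. Of these 3 genes only Cenpv was under the call in all classes. Exons of Cenpk, Cenpo, Cenpp, Cenpq, Cenpt and Cenpu overlap genes on the other strand, as do those of Kif2a, Kif3c, Kif4, Kif5b, Kif7, Kif18a, Kif1bp, Kif20a, Kif22, Kif26b and Kif27, and no label or file header says whether counting used strand.

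**Figure D2:**
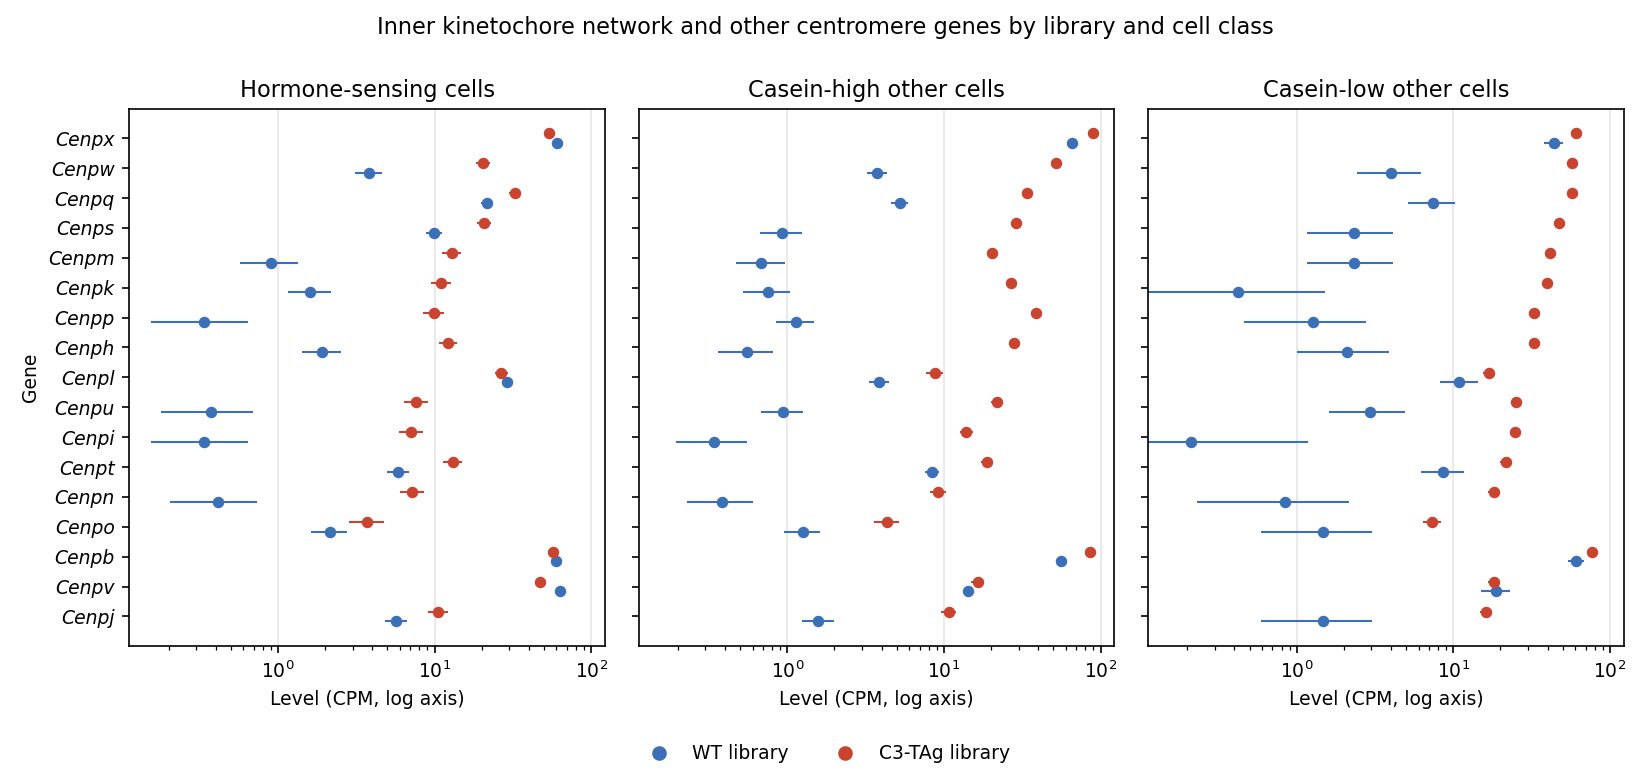
Level of the 14 inner kinetochore network genes and of Cenpb, Cenpj and Cenpv in CPM (log axis) by library, with 1 panel per cell class. Points are class totals with exact 95% counting intervals. Cenpx, Cenpb and Cenpv have neighbouring WT and C3-TAg points, whereas Cenpk and Cenpm lie far apart in every class.

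Genes that work with these members were counted from lists of partners. Higher in C3-TAg hormone-sensing, casein-high and casein-low cells were 9, 10 and 9 of 10 outer kinetochore genes, 5, 5 and 6 of 6 genes for loading CENP-A, 8, 9 and 9 of 9 passenger and checkpoint genes and 7, 7 and 7 of 7 spindle partners. No gene of these 4 lists was lower. Of all genes tested, 22.8%, 31.2% and 37.2% were higher and 9.14%, 10.6% and 14.7% lower in these classes. In cells with 3 or more receptor UMIs, 5 of 7, 1 of 6, 6 of 7 and 7 of 7 tested were higher, beside 12.3% of all genes. The count for loading CENP-A lay near that share. Median log2 ratios in casein-low cells were 4.4996, 2.54, 5.71 and 5.61. Knl1, the scaffold of the outer kinetochore, was higher by 105, 234 and 77.4-fold, and Racgap1, which joins Kif23 in centralspindlin, by 103, 36.0 and 103-fold. In cells with 3 or more receptor UMIs their ratios were 18.9 (5.73 to 97.9) and 22.2 (8.86 to 71.4). At the other end stood Zwint, an outer kinetochore adaptor, with 1.497, 1.62 and 1.45, and the checkpoint gene Bub3, with 1.15, 1.92 and 2.39. Both low-ratio genes had WT transcript, Zwint at 136, 114 and 124 CPM and Bub3 at 62.2, 38.9 and 43.6 CPM.

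Most transport kinesins were within 1.5-fold of WT. In hormone-sensing cells 1 of 14 tested was higher and none lower, in casein-high cells 3 were higher and 1 lower of 14, and in casein-low cells 2 were higher and 2 lower of 13, the rest of the 15 having under 20 UMIs. Of all genes tested, 22.8%, 31.2% and 37.2% were higher and 9.14%, 10.6% and 14.7% lower. Median log2 ratios were 0.24, 0.24 and -0.21, beside 0.14, 0.32 and 0.35 for all genes. With trimmed-mean (TMM) scaling, which shifted the ratios by -0.18, -0.34 and -0.24 on the log2 scale, 1, 2 and 1 were higher and 4, 2 and 5 lower, so the balance of directions among these genes depends on the scaling. Among cells with 3 or more receptor UMIs 2 of 14 were higher and 0 lower, beside 12.3% and 9.51% of all genes. The higher count lay near the all-gene share. The mitotic kinesins stayed at 11 of 11 higher in each class under that scaling.

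Kif5b, the ubiquitous heavy chain of conventional kinesin, had 271, 205 and 237 CPM in WT hormone-sensing, casein-high and casein-low cells and 360.0, 244 and 423 CPM in the C3-TAg cells of those classes. Its ratios were 1.33 (1.28 to 1.37), 1.19 (1.15 to 1.23) and 1.79 (1.68 to 1.90), past the call in casein-low cells. Kif1b, which moves mitochondria and vesicles, had 119, 108 and 146 CPM in WT cells and 114, 128 and 117 CPM in C3-TAg cells, with ratios of 0.956, 1.19 and 0.8003. It was under the call in each class. Kif5c (ENSMUSG00000026764, GRCm38 chr2:49619298-49774778, plus strand), a heavy chain best known from neurons, had 121, 2.39 and 8.63 CPM in WT cells and 142, 1.19 and 3.91 CPM in C3-TAg cells, so the classes lay further apart than the libraries. Between libraries the Kif5c ratio was 1.18 (1.11 to 1.24) in hormone-sensing cells and 0.497 and 0.453 in the other classes, on 34 against 112 and 126 against 41 UMIs. Cells with 4 to 6 UMIs per 10000 of the hormone-sensing genes numbered 7 and 20 in the WT casein-high and casein-low classes and 18 and 141 in the C3-TAg ones, and their part in these Kif5c levels was not tested.

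Kif21a, which slows microtubule growth at the cell cortex, had 17.0, 54.7 and 44.4 CPM in WT cells and 21.1, 79.6 and 30.9 CPM in C3-TAg cells and was under the call in each class. Kif1c, a fast carrier of dense vesicles, had 56.6, 41.1 and 41.9 CPM in WT cells and 40.4, 39.7 and 36.3 CPM in C3-TAg cells. Kif3a, a subunit of the heterotrimeric motor that builds cilia, had 29.2, 15.1 and 23.6 CPM in WT cells and 36.4, 25.5 and 33.3 CPM in C3-TAg cells, with a ratio of 1.69 (1.52 to 1.88) in casein-high cells. Among the rarer members, Kif5a was higher in hormone-sensing cells by 2.18-fold (1.14 to 4.24) and in those with 3 or more receptor UMIs by 2.50-fold (1.21 to 5.16), and Kif3b, a partner of Kif3a, in casein-low cells by 1.67-fold (1.12 to 2.57). Kif3c and Kif17, which also serve cilia, were higher in casein-high cells by 2.63-fold (1.87 to 3.75) and 2.19-fold (0.845 to 5.87). Kif21b was lower in casein-low cells by 1.66-fold (0.773 to 3.25). The intervals of Kif17 and Kif21b included equality. Kif13b and the endosomal carriers Kif13a and Kif16b were within the call in each class, with ratios from 0.719 to 1.31. Kif1a reached 20 UMIs in hormone-sensing cells only, at 1.22 (0.562 to 2.60). Kif17 shares exon sequence with Sh2d5 on the same strand, so its count may include that gene.

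**Figure D3:**
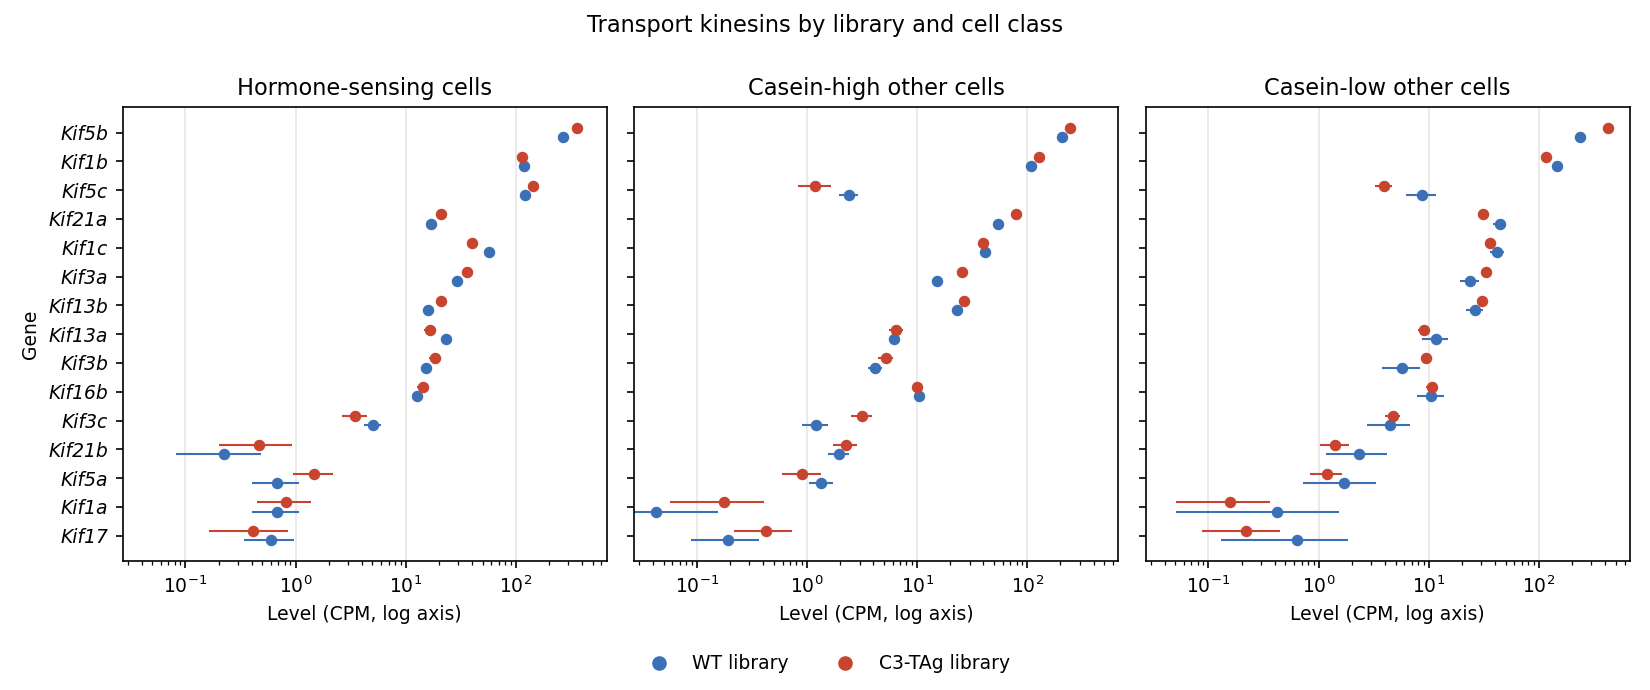
Level of the 15 transport kinesins in CPM (log axis) by library, with 1 panel per cell class, as class totals with exact 95% counting intervals. Most genes have WT and C3-TAg points side by side, and Kif5c goes from a high level in hormone-sensing cells to low levels in the other classes of both libraries.

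The cargo adaptors of these motors were near their WT levels. Of all genes tested in hormone-sensing, casein-high and casein-low cells, 22.8%, 31.2% and 37.2% were higher and 9.14%, 10.6% and 14.7% lower. None of 9 adaptors was called in hormone-sensing cells, and 1 was higher in casein-high and in casein-low cells, with medians of 0.13, 0.08 and -0.06. That 1 was Kifap3, which holds the Kif3 motors to their cargo, at 1.75 and 1.93. Klc3, a light chain of conventional kinesin, stood at 94.0 CPM in C3-TAg and 85.8 CPM in WT hormone-sensing cells. Of the other 9 Kif genes, 6 were higher, 1 lower and 2 within the call in hormone-sensing cells, 4 of 5 tested were higher in casein-high cells and 5 of 7 in casein-low cells. The all-gene shares given for the adaptors apply here too. Kif2a, a depolymerase with roles at spindle poles and cilia, was higher by 1.87, 1.71 and 1.68-fold. Kif24, which acts at centrioles and restrains cilium formation, was higher by 5.75-fold (2.69 to 13.7), 32.8-fold (8.50 to 279.9) and 26.1-fold (4.63 to 1037), on 9, 2 and 1 WT UMIs. Kif24, Kif7 and Kif26a had under 20 UMIs in cells with 3 or more receptor UMIs. Kif7, a regulator of hedgehog signalling at the cilium tip, gave 3.73 (1.56 to 9.84), 2.21 (1.195 to 4.16) and 1.205 (0.516 to 3.44). Kif26a, Kif26b and Kif27 were higher in hormone-sensing cells by 14.1, 5.49 and 1.81-fold. Kif19a, a depolymerase of motile cilia, was lower in hormone-sensing cells by 3.51-fold (1.45 to 10.2), at 6 against 33 UMIs. Kif1bp was within the call in all 3 classes.

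In C3-TAg cells outside the hormone-sensing class, the role groups differed in median ratio between cell cycle states, while single members overlapped. States were set from 25 G2 and mitosis genes and 29 S phase genes that include no member, with a level of 10 UMIs per 10000 as the limit. This gave 3111 G2M-high, 1933 S-high and 843 low cells. From S-high to G2M-high cells all 11 mitotic kinesins were higher and 16 of 20 centromere genes were, against 12.5% of 12990 genes, while 0 of 13 transport kinesins were higher and 0 lower. Lower genes were 3.59% of all. Median log2 ratios were 2.57 for mitotic kinesins, 0.85 for centromere genes and 0.11 for transport kinesins, beside 0.12 for all genes. From low to S-high cells 9 of 10 mitotic kinesins and 13 of 20 centromere genes were higher, against 18.8% of 11950 genes, and 1 of 13 transport kinesins was higher and 1 lower, with 6.2% of all genes lower. The states were cut from the same cells, so these ratios are a description.

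Members differed in their ratios between states. Kif20a had 0.638, 0.933 and 20.6 CPM in low, S-high and G2M-high cells, with a G2M-high over S-high ratio of 22.1 (13.5 to 38.8). Its S-high over low ratio was 1.46 (0.512 to 5.10), on 16 against 5 UMIs. Kif15 had 2.17, 14.6 and 69.6 CPM in low, S-high and G2M-high cells, with ratios of 4.77 (4.19 to 5.46) and 6.72 (4.11 to 11.7) for the same steps. Kif15 was thus already well above the low cells in S-high cells. Kif20a was not called there, but it had few UMIs and its interval overlapped that of Kif15. For G2M-high over S-high, Kif11 and Kif14 gave 12.1 (10.1 to 14.7) and 11.3 (6.99 to 19.6), and Kif20b was lowest of the 11 with 2.48 (2.24 to 2.76). On the same scale Cenpa, Cenpf and Cenpe gave 6.204, 5.48 and 4.21. In the inner network, Cenpn and Cenpu had S-high over low ratios of 4.38 and 4.27, Cenpm and Cenpl had the largest G2M-high over S-high ratios (4.02 and 3.80), and Cenpx and Cenpt were under the call there (1.22 and 1.34). Cenpb gave 1.002.

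Splitting the G2M-high cells by their G2M level (1180 cells at 10 to 20, 1292 at 20 to 40, 580 at 40 to 80 and 59 at 80 or more UMIs per 10000) separated the members further. Cenpa had 48.1, 149, 356 and 1127 CPM in that order and Cenpf had 42.0, 106, 281 and 1014 CPM. Kif20a had 4.77, 14.7, 43.9 and 232 CPM, and Kif23 26.5, 72.8, 153 and 326 CPM. All 4 were highest in the last bin. Kif15 had 43.5, 76.9, 97.7 and 104 CPM, a small step between the last bins, and Cenpx had 77.7, 85.8, 83.1 and 44.8 CPM, its lowest value in the highest bin. Of the transport genes, Kif5b went from 334 to 479 CPM and Kif21a from 55.8 to 15.5 CPM, so this pair went in opposite directions. The bins were not matched in casein class. Among G2M-high cells the mean G2M level was 23.7 UMIs per 10000 in casein-high and 31.6 in casein-low cells. The part of casein class in the levels of this pair was not tested.

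**Figure D4:**
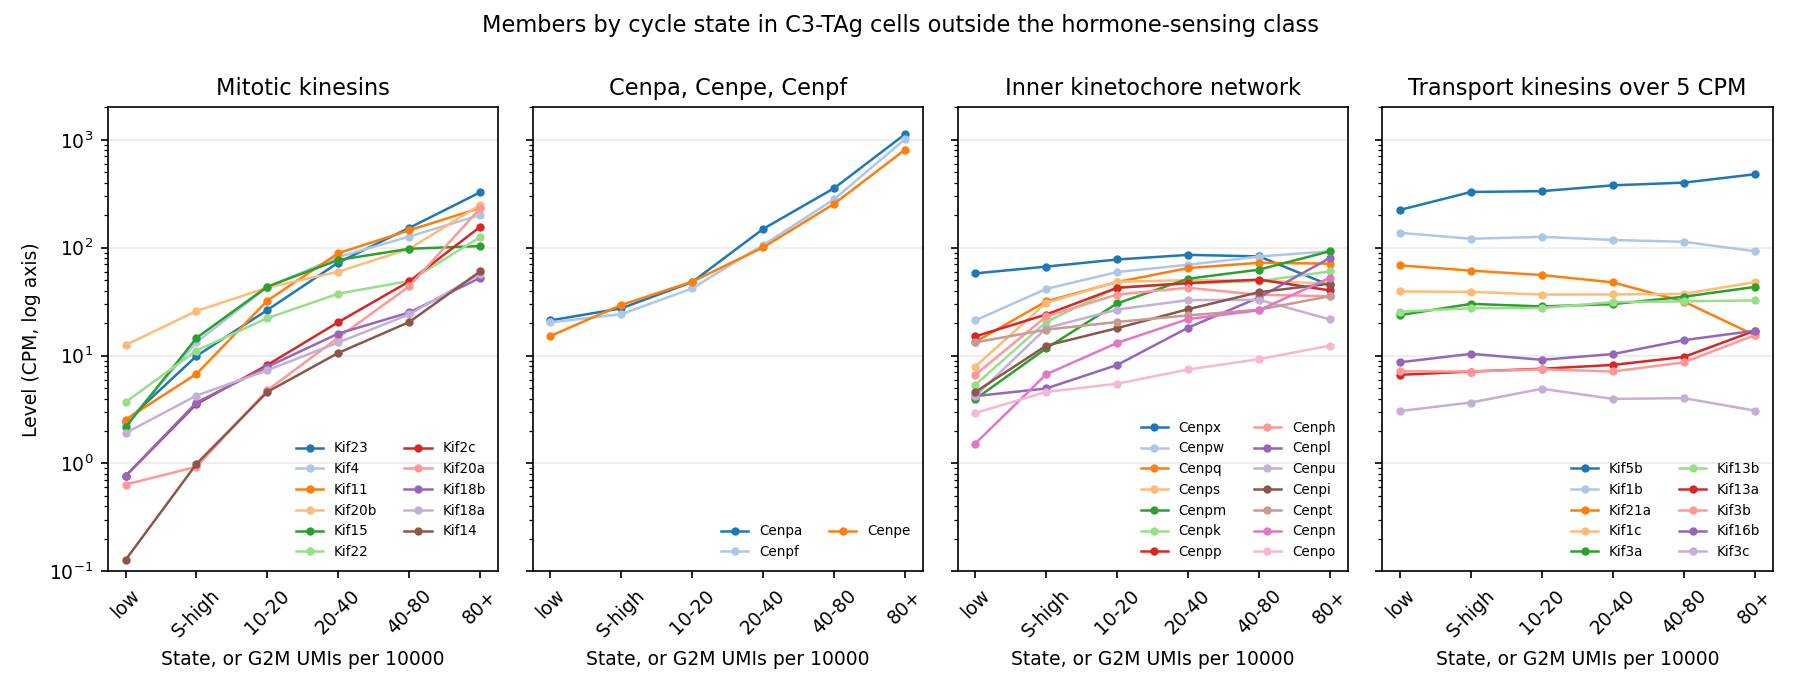
Level of members in CPM (log axis) in C3-TAg cells outside the hormone-sensing class, ordered from low over S-high to G2M-high cells in 4 bins of G2M UMIs per 10000. Each line is 1 gene and the panels split them by role. The transport panel leaves out Kif5c and the genes with the lowest levels. Lines of mitotic kinesins and of Cenpa, Cenpe and Cenpf climb to the right. Most lines of the transport kinesins drawn stay nearly level, and the inner network lies between them.

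Cells under both state limits were compared between libraries, but they were not matched in cycle genes. The mean G2M level of these low cells was 2.47 UMIs per 10000 in C3-TAg and 0.249 in WT. In the low state outside the hormone-sensing class, the mitotic kinesins summed to 29.9 CPM in 843 C3-TAg cells and 3.35 CPM in 4297 WT cells. All 7 mitotic kinesins with 20 UMIs were higher there, as were 16 of 20 centromere genes and 3 of 13 transport kinesins, against 21.6% of 12630 genes higher and 9.11% lower, with median log2 ratios of 2.99, 2.31 and 0.14. Kif20b had the largest ratio of the 7, 30.5 (18.9 to 51.5), and Cenpe gave 45.8 (27.4 to 81.2). The part of the higher G2M level of the C3-TAg low cells in these ratios was not tested. Leaving out G2M-high and S-high cells turned the direction of 5 ratios. Kif18a in hormone-sensing cells went to -0.087 (log2), Cenpl to -0.49 in casein-high and -0.14 in casein-low cells, Cenpt in casein-low cells to -0.096 and Kif5c in casein-low cells to 1.91. In the other direction, the WT library held 8 G2M-high cells outside the hormone-sensing class, and in them the mitotic kinesins summed to 287 CPM (206 to 389.8), against 492 CPM (485 to 499) in the C3-TAg G2M-high cells. Their mean G2M levels were 17.9 and 29.1 UMIs per 10000. The WT level in these cells was below the C3-TAg one and far above that of any WT class.

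Within the C3-TAg library, casein-high cells had lower levels of most mitotic kinesins than casein-low cells. Of the 11 mitotic kinesins 9 were lower and 0 higher, and of the 20 centromere genes 11 were lower and 0 higher, where 30.8% of 13235 genes were lower and 8.99% higher. Kif23 was lower by 3.99-fold (3.63 to 4.39), Cenpf by 2.59-fold (2.43 to 2.76) and Kif4 by 2.39-fold (2.21 to 2.59). Restricting both sides to G2M-high cells, of which 1000 were casein-high and 2111 casein-low, left 4 of 11 mitotic kinesins lower, against 25.7% of 12540 genes lower and 9.05% higher. These groups were not matched in state, with mean G2M levels of 23.7 and 31.6 UMIs per 10000, and the part of that in the remaining differences was not tested. Under TMM scaling of all cells 5 of 11 were lower. Kif23 remained lower by 2.75-fold (2.49 to 3.05) among G2M-high cells, and Cenpf by 2.13-fold (1.98 to 2.28). Kif21a (ENSMUSG00000022629, GRCm38 chr15:90933276-91049948, minus strand) was higher in casein-high cells, by 2.58-fold (2.39 to 2.78) overall and 2.79-fold (2.53 to 3.09) among G2M-high cells. Kif5b was lower by 1.73-fold (1.68 to 1.78) and 1.68-fold (1.61 to 1.74). The all-gene median log2 ratio of casein-high over casein-low cells was -0.30. Caseins stood at 31135 CPM in casein-high and 676 CPM in casein-low C3-TAg cells, and their part in that median was not tested.

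Several transport kinesins differed between hormone-sensing and casein-high cells in the same direction in both libraries. In WT, 7 of 15 transport kinesins were higher and 3 lower in hormone-sensing cells, with 39.4% of 13101 genes higher and 19.8% lower. In C3-TAg 4 of 13 were higher and 2 lower, with 28.6% and 17.8% of 12911. These counts lay near the all-gene shares, so single genes are described here and not a trait of the set. Kif5c was higher by 50.7-fold (42.0 to 61.7) in WT and by 119.7-fold (85.4 to 173) in C3-TAg. Kif13a, an endosomal carrier, gave 3.71 and 2.56, and Kif3b 3.72 and 3.55. Lower in both were Kif21a, by 3.22-fold (2.91 to 3.56) and 3.77-fold (3.37 to 4.23), and Kif21b, by 8.64-fold (3.82 to 24.2) and 4.76-fold (2.28 to 11.5). The related pair Kif21a and Kif21b was thus on the casein-high side in each library. Kif9, a kinesin of motile cilia, gave 7.90 and 6.72, and Kif27, a relative of the hedgehog kinesin Kif7, 3.80 and 4.20. Of the centromere genes, Cenpv was higher by 4.46-fold (4.08 to 4.89) and 2.89-fold (2.57 to 3.24) and Cenpl by 7.53-fold (6.40 to 8.91) and 3.05-fold (2.61 to 3.57). With Areg left out of the class rule, the C3-TAg log2 ratio was 6.91 for Kif5c, -1.98 for Kif21a, 1.77 for Cenpv and 1.70 for Cenpl.

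Some mitotic kinesins and centromere genes did not keep their direction in both libraries. Kif2c was higher in hormone-sensing than casein-high cells of WT by 41.5-fold (13.6 to 206), on 71 against 3 UMIs, and gave 0.699 (0.567 to 0.860) in C3-TAg. Kif18a went from 4.23 to 0.439, Cenpf from 5.98 to 0.622, Cenps from 10.9 to 0.717 and Cenpq from 4.13 to 0.951. In C3-TAg cells with 3 or more receptor UMIs, set against all casein-high and casein-low cells of that library, the ratios were 0.414, 0.319, 0.118, 0.302 and 0.520, also under 1. For hormone-sensing over casein-high cells of C3-TAg, Kif18a and Cenpf were past the call. Kif2c, Cenps and Cenpq were within it, with Cenpq near equality. In WT 4 of the 7 mitotic kinesins with enough UMIs were higher and 2 lower in hormone-sensing cells. Of all genes 39.4% were higher there and 19.8% lower. The ratios of Kif11, 1.76 (0.721 to 4.27), and Kif20b, 1.67 (0.842 to 3.29), had intervals that included equality. Under TMM scaling both were within the call. The interval of the lower Kif15, on 5 against 20 UMIs, also included equality. In C3-TAg 0 of 11 were higher and 7 lower, beside 28.6% and 17.8% of all genes. Of the centromere genes 10 of 20 were higher and 2 lower in WT, against 2 and 12 in C3-TAg. The 2 libraries also differed in cycling cells, with 1 G2M-high WT hormone-sensing cell and 5 WT casein-high ones against 286 and 1000 in C3-TAg.

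**Figure D5:**
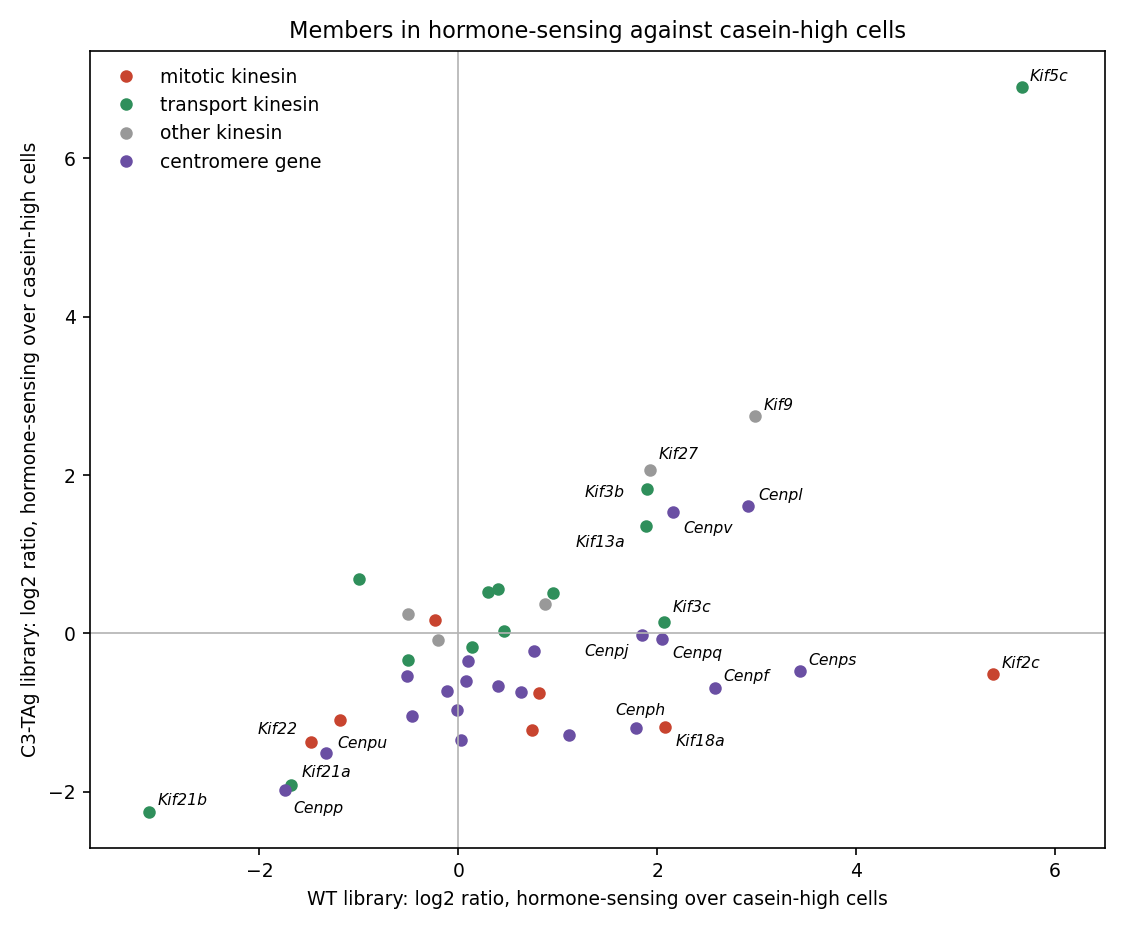
Log2 ratio of hormone-sensing over casein-high cells for each of 45 members in the WT library (horizontal) and the C3-TAg library (vertical), with colours by role. Kif5c lies far to the upper right and Kif21a and Kif21b at the lower left, while Kif2c, Cenps, Cenpf, Kif18a and Cenpq are positive in WT and below 0 in C3-TAg.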

How the data were processed

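Single-cell RNA libraries of sorted luminal cells, 1 per group, were deposited as whole-number UMI counts per gene and barcode. The submitters' processing notes name Cell Ranger 3.1.0 and the mm10 build for what the authors did before they deposited these counts, which carry no normalization. Barcode calling: not given in the sources used here. Groups came from the labels. A barcode needed 500 genes, 1000 UMIs and at most 10% mitochondrial UMIs. Among 8993 WT barcodes 7406 passed and among 9575 C3-TAg barcodes 8458 did, and Scrublet (scanpy 1.11.5) removed 360 (4.86%) and 544 (6.43%) doublets.

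Counts were summed per library and class and divided by the class total (4748326 to 46861829 UMIs), with Python 3.11.15, numpy 2.4.6, scipy 1.17.1 and pandas 2.3.3. Levels carry exact Poisson, ratios exact conditional Poisson and shares exact Clopper-Pearson intervals at 95%. A gene entered a comparison with 20 UMIs over both groups. A group at 0 was set to 3 counts. With 1 library per group no test was possible. Class and state limits cut continuous scores. Between 4 and 6 UMIs per 10000 of the hormone-sensing rule lay 46 WT and 261 C3-TAg cells, between 0.4 and 0.6% caseins 175 and 241, and between 8 and 12 G2M UMIs per 10000 lay 3 and 740. TMM factors came from edgeR 4.0.16. The ratio step was tested on simulated data. Alternatives changed scaling, doublets, filters, class and state limits, thinning, minimum and call ratio. Leaving Areg out of the class rule was chosen after seeing the data.

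Members and lists were chosen with earlier results of these data known. Any member may be named, with values in full for the 6 highest per role, and up to 2 partners at either end among those with 20 CPM. Gene models and promoter windows came from GRCm38 annotation and RefSeq, which share the mm10 build. Figures were drawn with matplotlib 3.10.9.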

Additional observations from a re-analysis of the deposited data

Results flagged for a closer look

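Mitotic kinesin UMIs were also found in barcodes that the doublet call or the cell filter kept out of the classes, and that entered only the alternatives with doublets kept or over all barcodes. Their C3-TAg levels lay above those of the same barcodes in WT. In the C3-TAg called doublets the 11 mitotic kinesins summed to 264 CPM, against 5.35 CPM in the WT called doublets. In the C3-TAg barcodes under the cell filter the sum was 215 CPM, against 8.56 CPM in WT. Both C3-TAg values lay between the hormone-sensing and casein-low levels of that library.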

How the results depend on the processing

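Of the values recomputed under each alternative, 1700 kept their direction within the spread or count margin set for them, 218 moved further and 5 turned direction. No paired analysis was possible because there was 1 library per group. The mitotic kinesins stayed at 11, 11 and 11 higher under TMM scaling, with doublets kept and over all barcodes, and the centromere genes at 15, 17 and 16 higher under TMM. Without G2M-high and S-high cells, 7, 7 and 0 of the 11 mitotic kinesins still reached 20 UMIs in hormone-sensing, casein-high and casein-low cells, of which 6, 7 and 0 were higher, and 19, 20 and 11 centromere genes, of which 9, 16 and 6 were higher. In the same order 14, 13 and 11 transport kinesins were tested in that setting, of which 2, 2 and 2 were higher and 0, 2 and 0 lower. It also turned the log2 ratios of Kif18a in hormone-sensing cells (-0.087), Cenpl in casein-high (-0.49) and casein-low cells (-0.14), Cenpt (-0.096) and Kif5c (1.91) in casein-low cells, for which the cause was not tested. Transport kinesins higher in hormone-sensing cells (1) became 3 with doublets kept and over all barcodes, 2 at a class limit of 10, with a minimum of 1 UMI or without Areg, and 0 with a minimum of 50. Those lower there (0) became 4 under TMM, 1 with doublets kept, over all barcodes or at a class limit of 3, and 2 at a limit of 10. Lower in casein-high cells (1) became 2 under TMM, with doublets kept or over all barcodes. In casein-low cells, higher (2) became 1 under TMM or at a limit of 10 and 0 at a ratio of 2, and lower (2) became 5 under TMM, 4 with a minimum of 1 UMI, and 1 at a limit of 10, a ratio of 2, without endothelial or immune cells or without Areg. Members called between S-high and G2M-high cells fell from 32 to 21 at a ratio of 2, and mitotic kinesins lower in casein-high than casein-low cells from 9 to 5 under TMM and 4 within G2M-high cells. Shares of cells with a mitotic kinesin UMI moved with thinning. At 1000 UMIs they were 0.625% and 0.347% in WT hormone-sensing and casein-low cells and 7.25%, 16.3% and 26.4% in the C3-TAg classes, and at 5000 UMIs 3.34%, 1.39% and 3.15% in WT and 19.6%, 47.6% and 64.7% in C3-TAg. The C3-TAg hormone-sensing share was 13.8% with doublets kept, 15.8% and 7.14% at class limits of 3 and 10 and 4.80% without Areg, which put the casein-low share at 39.0%. The cells of 1 library per genotype limit every comparison, and genes with few WT UMIs have wide intervals.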
